A study of Tachycineta bicolor with 20 samples.

Results

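The comparison concerns 9 of the 20 tree swallow (Tachycineta bicolor) ovaries in the series, those whose titles carry Day 2. They were chosen by title alone: 4 came from experimental females and 5 from control females. Experimental females had lost access to their nest boxes for a limited period and were sampled 2 days after competition peaked. Controls were left unmanipulated and were sampled on matched dates. All were adult, wild and carried no genetic or drug manipulation, and each library is 1 ovary of 1 bird. The labels give no follicle stage, laying date or cell composition.

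Tree swallows breed in cavities they cannot dig, and females fight over them. The avian ovary holds follicles of graded sizes. Their granulosa and theca cells make progesterone, androgens and estrogens, and steroids made there can enter the yolk. Ovarian transcript levels after a period of contest can therefore bear on later reproduction and on maternal effects. In whole ovaries, fewer cells of a type and less RNA per cell cannot be told apart. The table pairs its transcript IDs with no gene names, so ovarian markers could not be looked up, the tissue label was not checked against them, and no role is given to any transcript.

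Total counts ran from 8239722 in experimental bird 2 to 15718893 in experimental bird 3. They averaged 10865253 ± 3356770 (SD, n = 4) in experimental birds and 11132833 ± 1985055 (SD, n = 5) in controls, a difference within the spread of the birds (two-sided exact permutation p = 0.873). Of 14782 transcripts, 13323 passed the filter on low counts and were tested. Levels are given as CPM, the count of a transcript relative to the library total after TMM scaling, with no correction for transcript length.

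By edgeR's quasi-likelihood test on the 9 birds, 1 transcript was lower in experimental birds than in controls and 0 were higher. It was tree_swallow009929t1_sg0.0, the single transcript of its ID stem. Its level was 36.1 CPM in experimental bird 1, 65.1 in bird 2, 30.1 in bird 3 and 40.5 in bird 4. In controls it was 222, 319, 140, 265 and 267 CPM in birds 1 to 5. Every experimental bird lay well under the lowest control. The means were 43.0 CPM ± 15.4 (SD, n = 4) and 242 CPM ± 67.1 (SD, n = 5), a log2 fold change of -2.50 (SE 0.256, 95% interval -3.06 to -1.94, edgeR adjusted p = 0.0158), or 5.66-fold lower. With edgeR 1 of 13323 transcripts was called in total, 0.00751% of those tested, and it lay in the lower direction. For the higher direction the share called was 0%, with 480 transcripts at an unadjusted p under 0.05 (3.6%). In the lower direction 420 had such a p (3.15%).

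The transcript tree_swallow009929t1_sg0.0 was picked by its p in these birds. The alternative analyses reuse them, so a steady size adds no support. The size of its difference was steady and its call was not. Its log2 fold change lay between -2.77 and -2.29 in 18 alternative analyses, and it was called in 11 of them, of which 1 was the same fit read at a looser threshold. It was lost in edgeR when control bird 4 or 5 was left out (adjusted p = 0.0661 and 0.0514), and when experimental bird 1, 3 or 4 was (0.17, 0.0951 and 0.0772). It was also lost in limma-voom with sample weights (0.0611) and when the Day 0 birds joined the fit (0.122). In that last fit the 1 call was tree_swallow001694t1_sg0.0, a transcript chosen for mention after its result was known. Its log2 fold change there was 1.25, and its edgeR adjusted p was 0.0361 in that fit and 0.286 with the 9 birds alone.

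**Figure D1:**
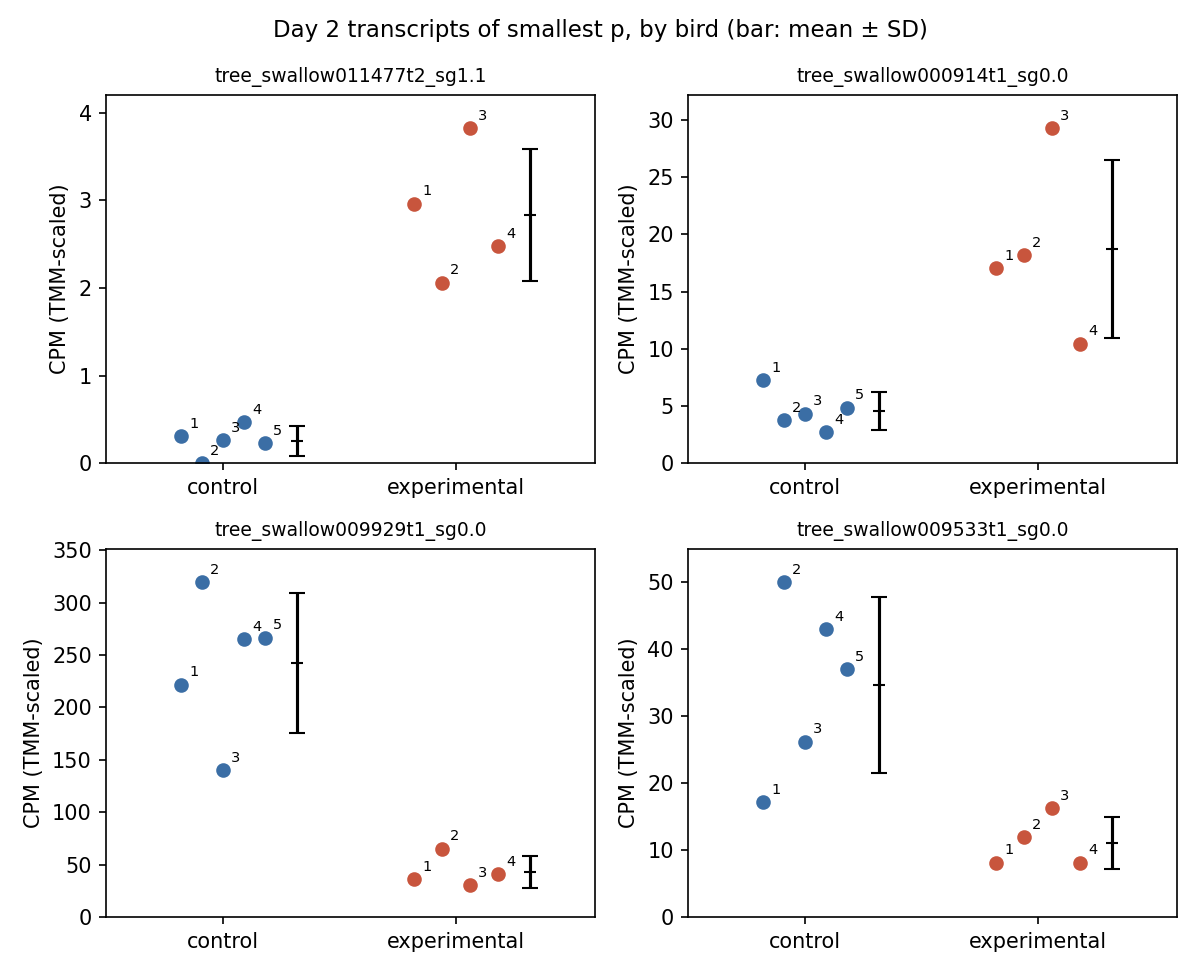
CPM of 4 Day 2 transcripts in each bird, 2 with the smallest p among higher and 2 among lower ones; points carry the bird number and bars show the mean and SD of 5 controls and 4 experimental birds. In all 4 panels the groups do not overlap, and only tree_swallow009929t1_sg0.0, from 30.1 to 65.1 CPM against 140 to 319, passed the edgeR test.

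The other 3 named transcripts did not pass in edgeR. The transcript tree_swallow011477t2_sg1.1 was scarce in controls, with counts of 4, 0, 3, 6 and 2 in birds 1 to 5, and the count of 0 in bird 2 allows up to 0.32 CPM. Experimental birds 1 to 4 had 30, 17, 62 and 23 counts, which came to 2.06 to 3.82 CPM. All 4 lay above the highest control, at 0.469 CPM. Its log2 fold change was 3.38 (SE 0.556, edgeR adjusted p = 0.243).

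The transcript tree_swallow000914t1_sg0.0 had 17.1, 18.2, 29.3 and 10.4 CPM in experimental birds 1 to 4, and 7.23, 3.74, 4.32, 2.74 and 4.84 in control birds 1 to 5. The groups were separate, with experimental bird 4 nearest to control bird 1. Its log2 fold change was 2.03 (SE 0.332, edgeR adjusted p = 0.245). In the other direction, tree_swallow009533t1_sg0.0 had 8.09, 11.9, 16.3 and 8.08 CPM in experimental birds 1 to 4. Control birds 1 to 5 had 17.1, 49.98, 26.2, 42.9 and 37.0 CPM, so experimental bird 3 and control bird 1 almost met. Its log2 fold change was -1.64 (SE 0.315, edgeR adjusted p = 0.457). Each of the 4 named transcripts is the only 1 with its stem, and all were picked by the smallest p in these counts, so the gaps between their groups add no support.

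DESeq2 called more transcripts than edgeR. It gave a p-value for 13296 of the transcripts and called 18, of which 13 were higher and 5 lower, the 4 named ones among them. Their log2 fold changes were 0.551 to 3.44 in size, and all 18 had the same direction and an unadjusted p under 0.05 in edgeR. The highest edgeR adjusted p among them was 0.731. Of the 18, 13 lay at 10 to 100 CPM, 4 at 100 to 1000 and 1 at 1 to 10, where these classes held 54.4%, 19.5% and 25.5% of all transcripts tested. From stems with 1 transcript came 17 of the 18, and such stems held 82.6% of all tested. In 15 the groups did not overlap, against 2.04% of all tested. The 18 were picked by p in these same counts, so the separation and the shared direction in edgeR add no support. limma-voom with sample weights called 0 of 13323 transcripts. In it 1906 of the 13323 had an unadjusted p under 0.05. In edgeR 900 of 13323 had such a p (6.76%), and in DESeq2 1049 of 13296. Why the tools differed in this was not tested.

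Across all transcripts the typical difference was small. The median log2 fold change was 0.00, the median size of the change was 0.17 on the log2 scale, and 50.3% of transcripts were higher in experimental birds. TMM scaling is meant to center the bulk of transcripts near no change, so the median of 0.00 and the share of 50.3% depend on it. With RLE in place of TMM factors the share was 50.7% and the median 0.0045. With library totals alone the overall share was not computed, and shares by abundance class are given below. The tail was uneven: the 5th percentile of the log2 fold change was -0.41 and the 95th was 0.68. By fitted value 236 transcripts were at least 2-fold higher (1.77% of those tested) and 64 at least 2-fold lower (0.48%). For 76.5% of transcripts the 95% interval left no room for a 2-fold change either way.

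Most transcripts in this tail had overlapping groups. Of the 236 higher ones, the groups did not overlap in 31 (13.1%, against 0.743% of all tested), and in 90 all 4 experimental birds lay above the control mean (38.1%). Experimental bird 2 was the highest experimental bird in 106 of the 236 (44.9%), bird 3 in 67, bird 4 in 38 and bird 1 in 25. Of the 64 lower ones the groups did not overlap in 4 (6.25%, against 1.3% of all tested), and in 57 all 4 experimental birds lay below the control mean (89.1%). Control bird 5 was the highest control in 35 (54.7%). Both tails were picked by the fitted group means, so separation and positions past the control mean are partly built in. The share of all transcripts with every experimental bird past the control mean was not computed. That mean is one of CPM, which 1 high control raises, so the shares of 38.1% and 89.1% cannot be compared directly. The counts also moved with single birds. The higher tail held 405 transcripts without control bird 2 and 432 without experimental bird 1. The lower tail held 143 without experimental bird 2, 104 without experimental bird 4 and 44 without control bird 5.

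**Figure D2:**
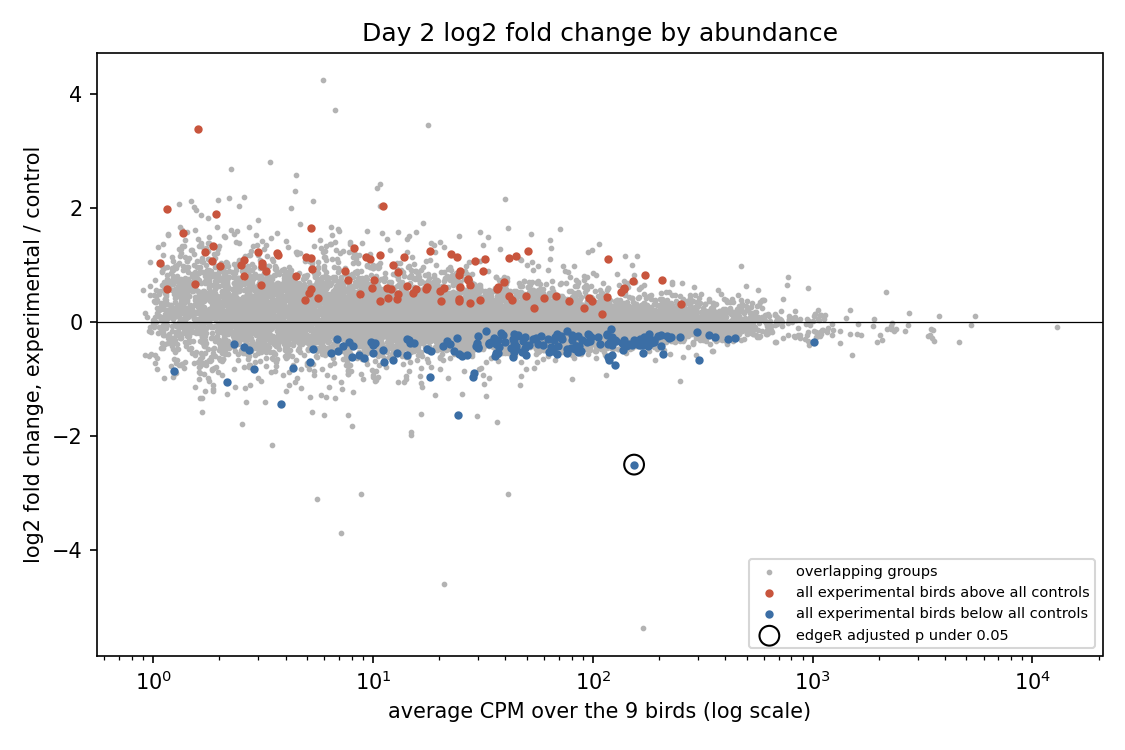
Log2 fold change (experimental over control, Day 2) of 13323 transcripts against their average CPM on a log axis; red and blue points are transcripts whose groups do not overlap and the ring marks the edgeR call. The 99 separated transcripts above 0 had a median size of 0.73 and the 173 below 0.39, and the ringed transcript lies at -2.50.

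Complete separation of the groups was counted more often in the lower direction, unlike the 2-fold tail. In 99 transcripts every experimental bird lay above every control (0.743% of those tested), and in 173 every experimental bird lay below (1.3%). If treatment played no part, a transcript would separate in a given direction with probability 0.00794, given 126 arrangements of the birds. The higher share lay just under that probability and the lower share above it, and neither was tested against it. The imbalance also moved with the scaling. With RLE in place of TMM factors 108 were separated and higher and 159 lower, and with library totals alone 108 and 152. The separated higher transcripts had a median log2 fold change of 0.73 in size, and the separated lower ones 0.39. Among 13105 transcripts tested in each of 9 edgeR fits that left out 1 bird in turn, 61.2% kept their direction throughout, the separated ones by construction. These fits share most of their birds, and the share expected if treatment played no part was not computed.

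Single birds of either group lay outside the range of the other group for more transcripts. Experimental bird 3 was above all 5 controls in 2447 transcripts (18.4%) and below all in 2917 (21.9%). Bird 1 was above in 1964 (14.7%) and below in 2020 (15.2%), bird 2 above in 2236 and below in 2217, and bird 4 above in 2064 and below in 2303. Single controls were above all 4 experimental birds in 2418 to 3275 transcripts (18.1 to 24.6%) and below all in 2451 to 3304 (18.4 to 24.8%), against a range set by 1 bird fewer. Most transcripts with such a position had it in 1 experimental bird only. Any division of the birds into these group sizes yields such positions. If treatment played no part, an experimental bird and each of the 5 controls would be equally likely to be the highest of them. The counts expected from this were not computed, so those given here are a description only and no result about treatment. Of the transcripts with an experimental bird above the controls, 3483 had 1 such bird, 1495 had 2, 614 had 3 and 99 had all 4. Below the controls the numbers were 3343, 1523, 792 and 173. Within groups the median SD of log2 CPM over birds was 0.28 in experimental birds and 0.31 in controls.

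**Figure D3:**
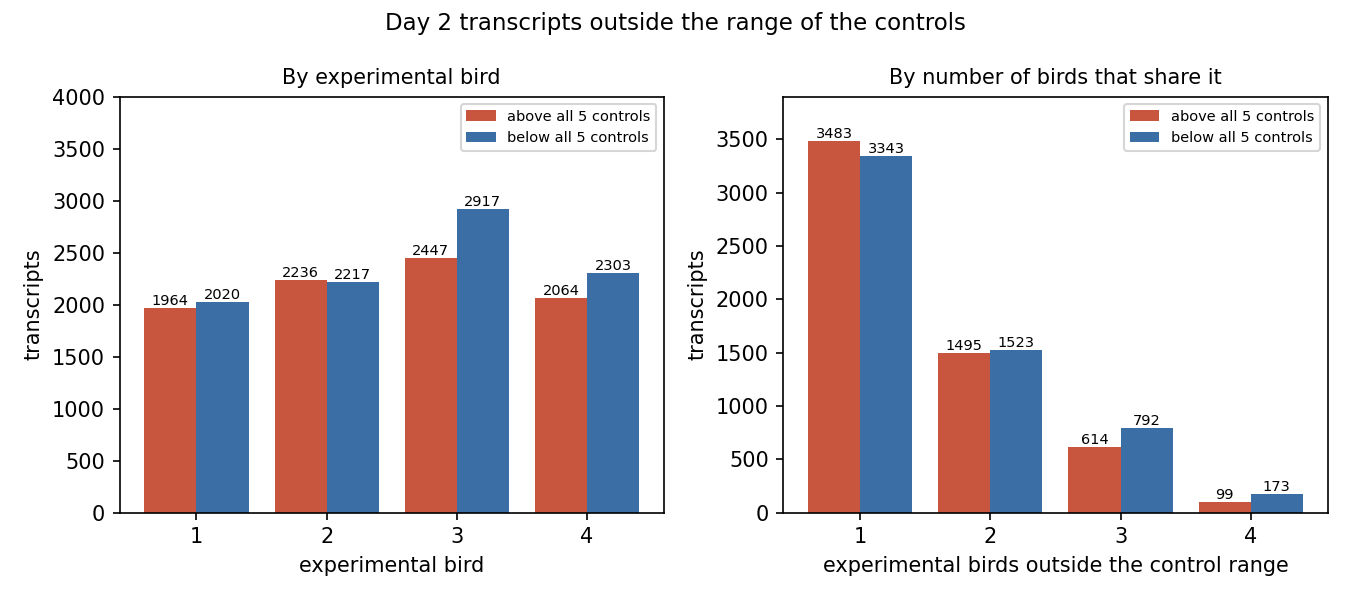
Number of Day 2 transcripts above (red) or below (blue) all 5 controls, by experimental bird (left) and by how many of the 4 experimental birds shared that position (right). Single birds lay outside in 1964 to 2917 transcripts per direction, and all 4 together in 99 and 173.

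The direction of the differences varied with abundance. At an average of 1 to 10 CPM, 62.9% of 3397 transcripts were higher in experimental birds, with a median log2 fold change of 0.14. At 10 to 100 CPM it was 47.8% of 7251, with a median of -0.01, and at 100 to 1000 CPM 41.2% of 2599, with a median of -0.04. Of the 62 transcripts at 1000 CPM or more, 18 were higher (29.0%) and the median was -0.13. Only 14 tested transcripts averaged under 1 CPM, 7 of them higher. The shares depended on the scaling. With library totals alone, 65.2% were higher at 1 to 10 CPM, 51.1% at 10 to 100 and 45.9% at 100 to 1000.

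Size and precision followed abundance as well. The median size of the change was 0.30 on the log2 scale at 1 to 10 CPM, 0.15 at 10 to 100, 0.12 at 100 to 1000 and 0.14 above that. Of the 236 transcripts at least 2-fold higher, 174 lay at 1 to 10 CPM and 57 at 10 to 100. The median standard error was 0.39 at 1 to 10 CPM and 0.15 at 100 to 1000. The 95% interval lay within 2-fold of no change for 35.7% of transcripts in the lower of these classes and for 96.6% in the higher.

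Separated transcripts showed the same order of directions. At 1 to 10 CPM, 37 were separated and higher (1.09%) and 21 separated and lower (0.618%). At 10 to 100 CPM there were 52 (0.717%) and 98 (1.35%), and at 100 to 1000 CPM 10 (0.385%) and 53 (2.04%). At an unadjusted p under 0.05 163 were higher (4.80%) and 38 lower (1.12%) at 1 to 10 CPM. At 10 to 100 CPM there were 263 (3.63%) and 262 (3.61%), and at 100 to 1000 CPM 54 (2.08%) and 119 (4.58%), where all transcripts together had 3.6% higher and 3.15% lower. The called transcript lay in the 100 to 1000 CPM class. The share of transcripts that kept their direction in all 9 fits with 1 bird left out was alike in these classes, at 59.4%, 61.5% and 62.5%.

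Taken bird by bird, this shift between classes was not larger than the spread within groups. For each bird the median deviation from the 9-bird mean was taken in the 1 to 10 CPM class and in the 100 to 1000 CPM class, and the second was subtracted from the first. The result was -0.24, 0.29, 0.28 and 0.09 log2 units in experimental birds 1 to 4, and -0.34, 0.25, -0.09, -0.13 and -0.01 in control birds 1 to 5. Experimental birds 2 and 3 and control bird 2 were high, experimental bird 1 and control bird 1 were low, and the groups overlapped. The means were 0.10 ± 0.24 (SD, n = 4) and -0.06 ± 0.21 (SD, n = 5), and a two-sided exact permutation test, chosen after the classes were seen, gave p = 0.31. With 1 bird left out in turn, the exact permutation p ranged from 0.0893 (without experimental bird 1) to 0.543 (without control bird 1). The gap between the shares of higher transcripts in the 2 classes was 21.7 percentage points. It was 13.9 without control bird 1 and 13.7 without experimental bird 3. It was 29.7 without experimental bird 1 and 27.1 without control bird 2.

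The share of each library's counts in the 1 to 10 CPM class and in that of 1000 CPM or more overlapped between the groups. Transcripts at 1 to 10 CPM held 1.32, 1.84, 1.77 and 1.59% of the counts in experimental birds 1 to 4, and 1.26 to 1.67% in controls. Those at 1000 CPM or more held 13.5, 13.1, 11.3 and 12.7% in experimental birds 1 to 4 and 12.1 to 14.9% in controls.

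**Figure D4:**
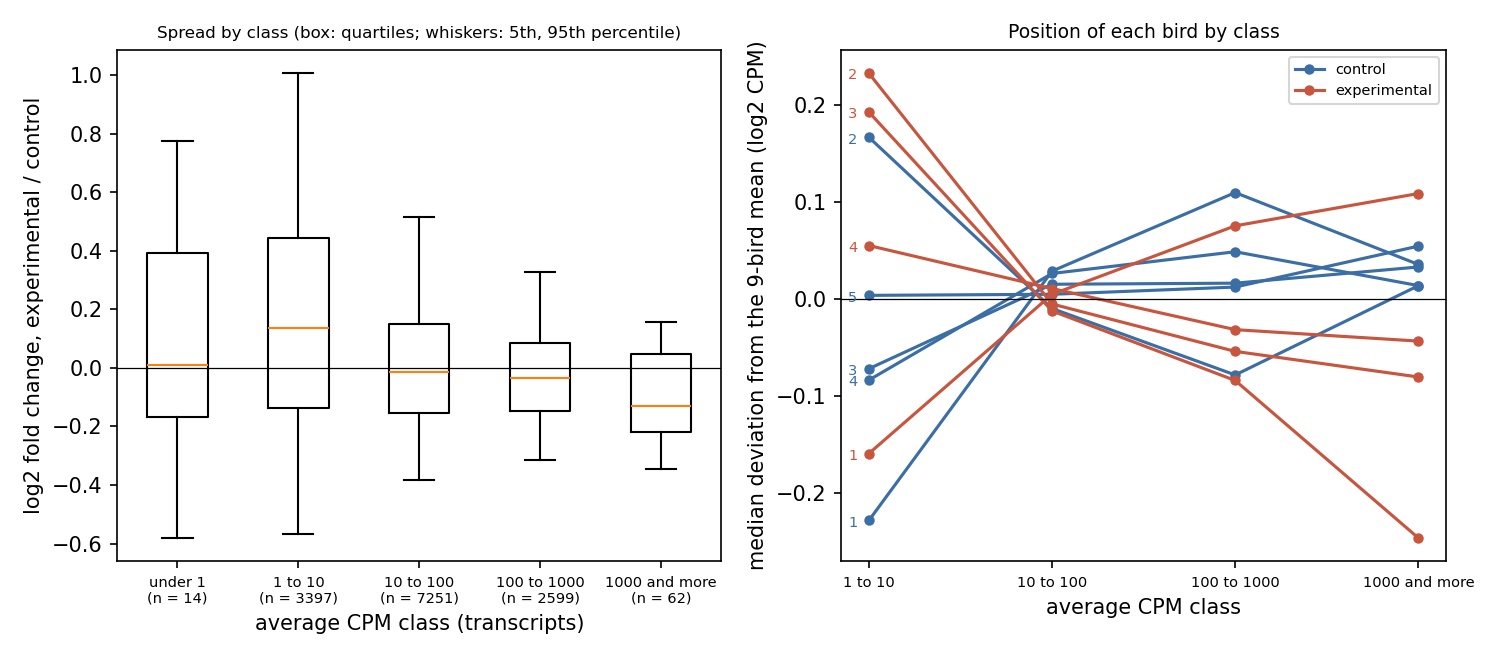
Left, log2 fold change (experimental over control) by class of average CPM, with boxes for the quartiles and whiskers for the 5th and 95th percentiles of transcripts; right, the median deviation of each bird from the 9-bird mean in log2 CPM, by class, with bird numbers. The left medians run from 0.14 at 1 to 10 CPM to -0.13 at 1000 CPM or more, and on the right the lines of the 2 groups cross and overlap.

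Transcripts fall into ID stems, the part of the ID before the transcript number. The table holds 13412 stems, of which 12280 have 1 transcript, 966 have 2 and 166 have 3 or more, up to 10. The sources used here do not say how reads that match several transcripts of 1 stem were handled, so levels of such transcripts are uncertain. Direction and size were close in single- and multi-transcript stems, without a test of the difference. In stems with 1 transcript 50.4% of 11011 transcripts were higher, in stems with 2 it was 49.2% of 1788, and in stems with 3 or more 52.9% of 524. The median size of the change was 0.17, 0.16 and 0.16 on the log2 scale. Median abundance was 33.3, 25 and 22.2 CPM in that order.

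The extremes were also spread over the stem classes. Among transcripts of single stems 2.27% differed at least 2-fold, against 1.79% in stems with 2 transcripts and 3.44% in stems with 3 or more. Groups did not overlap in 2.10%, 1.79% and 1.72% of transcripts, where 2.04% of all transcripts had such groups. At an unadjusted p under 0.05 stood 7.07%, 5.43% and 4.77%, where the share of all transcripts was 6.76%. Within the 1 to 10 CPM class 64.1% of single-stem transcripts were higher and 57.8% of those with partners in their stem. At 100 to 1000 CPM it was 40.9% and 43.2%. The order of directions by abundance thus held in both kinds of stem. Both were measured in the same libraries, so the second is no separate observation of the first.

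Transcripts of 1 stem mostly shared their direction. Of 879 stems with exactly 2 tested transcripts, both were higher in 340, both lower in 362 and they went opposite ways in 177, so 79.9% agreed in sign. The share was 80.2% where both transcripts averaged 10 CPM or more and 79.2% where the lesser averaged less. Over the 879 stems Pearson's r between the 2 log2 fold changes was 0.779 and Spearman's rho was 0.744, as a description of transcripts that share libraries and possibly reads. Their median distance was 0.09 log2 units. In 20 stems both transcripts had an unadjusted p under 0.05, and none of these 20 were opposite. Of 150 stems with 3 or more tested transcripts, 93 had all of them in 1 direction (62.0%).

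**Figure D5:**
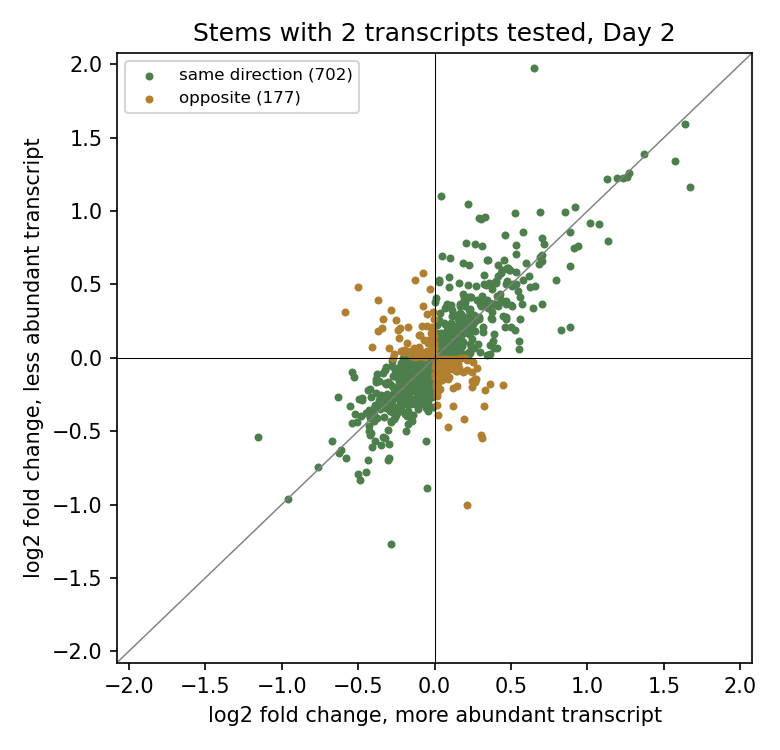
Log2 fold change (experimental over control, Day 2) of the less abundant against the more abundant transcript in 879 stems with 2 tested transcripts; the diagonal marks equal change. In 702 stems the 2 went the same way (green) and in 177 opposite ways (brown), where 0 pairs had both changes past 1.5-fold.

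Counts summed per stem gave the same single call. By edgeR 1 of 12099 stem sums was lower (0.00827%), that of tree_swallow009929 (log2 fold change -2.50, SE 0.255, edgeR adjusted p = 0.0134), and 0 were higher (0%). At an unadjusted p under 0.05 there were 436 higher (3.6%) and 392 lower (3.24%). Among the 1088 sums of stems with 2 or more transcripts 544 were higher. Of these 1088, 37 were higher and 32 lower at an unadjusted p under 0.05, and the smallest edgeR adjusted p was 0.541. No stem sum was called without control bird 4, or without experimental bird 1, 3 or 4. When the Day 0 birds joined the fit, 1 stem sum was called. For the alternative fits only the number of calls was kept, so which stem was called there is not known.

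The division of a stem among its transcripts was tested apart from its total. No stem of 1029 was called (0%) by edgeR's test of differential usage, diffSpliceDGE. The median p was 0.786, and 10 stems had an unadjusted p under 0.05 (0.972%). By its construction the test counts variation that transcripts of a stem share among birds as noise. A limma test of the log2 ratio of the leading transcript to the rest in each bird, added after that was seen, also called 0 stems. There the median p was 0.522, and 48 stems had an unadjusted p under 0.05 (4.66%).

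The stem of smallest p in the usage test was tree_swallow008828. Its first transcript, tree_swallow008828t1_sg0.0, took 83.0, 80.2, 76.6 and 80.4% of the stem's counts in experimental birds 1 to 4, and 85, 88.9, 83.3, 84.2 and 87.4% in control birds 1 to 5. The groups were separate by a narrow margin, between experimental bird 1 and control bird 3. The means were 80.0% ± 2.64 (SD, n = 4) and 85.8% ± 2.32 (SD, n = 5), and the edgeR adjusted p was 0.999.

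Next came tree_swallow001243, with 4 tested transcripts. Its leading transcript, tree_swallow001243t1_sg0.0, took 98.6, 52.2, 60.9 and 92.5% of the counts in experimental birds 1 to 4 and 87.8 to 99.5% in controls. Experimental birds 2 and 3 stood below all the rest, and birds 1 and 4 lay inside the control range. In experimental birds 2 and 3 tree_swallow001243t14_sg0.5 took 28.6 and 18.5%, and in birds 1 and 4 0.445 and 3.3%, against 0.117 to 6.14% in controls. The edgeR adjusted p for usage in this stem was 0.999.

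Features of whole libraries did not separate the groups. The 10 most abundant transcripts held 4.89% ± 0.572 of counts (SD, n = 4) in experimental birds and 5.33% ± 0.754 (SD, n = 5) in controls (two-sided exact permutation p = 0.365). Stems with 2 or more transcripts held 15.7% ± 0.235 and 15.9% ± 0.505 (exact permutation p = 0.437). At equal depth 14401 ± 107 transcripts were detected in experimental birds and 14329 ± 96.0 in controls (exact permutation p = 0.325). A principal component analysis of the 500 transcripts of highest variance put 44.2% of variance on component 1 and 14.6% on component 2, with exact permutation p of 0.635 and 0.246 for treatment. Adjusted over these 6 tests, depth included, no p was under 0.655, and the smallest p that 126 arrangements of the birds allow is 0.00794.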

How the data were processed

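Messenger RNA of ovaries was sequenced from stranded libraries, per the labels' protocols. Per the submitters' processing notes, the tools were Bowtie2 2.4.2, SAMtools, fastp 0.20.1 and CASAVA. The sources used here state neither their roles nor the reference or counting program. The authors deposited raw counts per transcript and bird, and each column was matched to its bird by title. One line with no transcript name, at 0 in every library, was left out.

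The 9 Day 2 birds were fitted in edgeR 4.0.16 (R 4.3.3): filterByExpr (minimum count 10, minimum total 15), TMM factors, robust quasi-likelihood test without covariates, Benjamini-Hochberg adjustment over all 13323 transcripts, called under 0.05. The filter removed at most 0.23% of any library's counts. The biological coefficient of variation common to all transcripts was 0.296. Standard errors are Wald errors with 11.9 degrees of freedom at the median. DESeq2 1.42.0 and limma 3.58.1 (voom with sample weights) served as alternatives. Component scores used log2 CPM with a prior count of 2. The limma ratio test added 0.5 to both counts. Floors are 3 counts per library, and floors and counting limits cover counting error only. Scripts were tested on simulated data.

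Transcripts were named by rule: the 2 higher and 2 lower of smallest p, and the 2 stems of smallest usage p. The comparison, classes and lists were chosen with earlier results of these data known. Birds were numbered within each group in sample order, and equal numbers mark no pairing. The labels give each bird as a separate sample. Chi-square over degrees of freedom, between raw counts of the 16 same-group pairs, was 23.6 to 65.9, so no 2 libraries of a group were counted as duplicates. Alternatives are given in the closing section.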

Additional observations from a re-analysis of the deposited data

How the results depend on the processing

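No paired analysis was possible because the labels give the birds no shared replicate numbers. Each alternative changed 1 choice at a time, except DESeq2 and limma-voom. DESeq2 brought its own scaling, dispersion and test together, and limma-voom also weighted the birds. Fits on other sets of birds were filtered and scaled anew. Calls of transcripts numbered 18 with DESeq2 and 0 with limma-voom and sample weights, against 1 in edgeR, and stem sums gave 18 with DESeq2. The counts of transcripts at least 2-fold higher and lower were 523 and 256 with no filter, and 485 were higher with limma-voom and sample weights. With 1 bird left out, transcript calls and stem sum calls each ranged from 0 to 2, and usage calls were 0 throughout. Transcripts at least 2-fold higher then ranged from 191 to 432 and lower ones from 44 to 143. The gap between the shares of higher transcripts at 1 to 10 and 100 to 1000 CPM ranged from 13.7 to 29.7 percentage points. It kept its direction with quintiles, RLE factors, thinning to equal depth, library totals, no filter and mean log2 CPM, of which all but the first 2 were chosen after the data were seen. With library totals alone 51.1% of transcripts at 10 to 100 CPM were higher. Stems whose 2 transcripts moved the same way ranged from 76.4 to 83.6%. With 1 bird left out, separated transcripts ranged from 139 to 361 (higher) and from 209 to 559 (lower). Fewer birds make separation easier, but these counts also differed with which bird was left out. Higher and lower ones numbered 361 and 559 without experimental bird 1, and 330 and 443 without experimental bird 4. They numbered 164 and 246 without experimental bird 2, and 163 and 224 without experimental bird 3. The depth difference ranged from -1885000 to 607600 counts and the component 1 difference from -2.89 to 15.9. Without control bird 1, tree_swallow000273t1_sg0.0 was also called (log2 fold change 1.47, edgeR adjusted p = 0.0278), named after its values were seen. The cause of these changes was not tested. In libraries thinned to equal depth, which was chosen after the data were seen, 214 transcripts were at least 2-fold higher, 69 at least 2-fold lower and the same 1 transcript was called.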
